A study of Rattus norvegicus with 30 samples.

Results

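The regions described here are stretches of the rat genome that carried a called DNA methylation (DNAm) peak in few Control (CON) animals and in most animals of both prenatal alcohol exposure (PAE) and pair-fed (PF) groups. Peaks of 30 prefrontal cortex (PFC) libraries on chromosomes 1 to 20 were merged wherever they overlapped by 1 bp or more. Merging gave 604866 regions, and the 352026 regions with calls in 3 or more libraries were tested. A region was a member if at most 3 of 10 CON libraries, at least 6 of 10 PAE libraries and at least 6 of 10 PF libraries had a called peak in it. This rule found 1299 members, 0.369% of the tested regions. Because the called peaks themselves chose the members, the difference of PAE and PF from CON is described below without a test.

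All animals were Sprague-Dawley rats sampled at postnatal day 22, and each group held 5 animals labelled female and 5 labelled male. PAE dams had free access to a liquid ethanol diet through gestation, PF dams received a liquid control diet without ethanol in the amount eaten by a PAE partner, and CON dams ate the pelleted control diet freely. PF animals therefore share the liquid diet and the reduced food intake with PAE animals, and CON animals share neither. The animals came from 15 litters, 5 per group, with 1 pup of each labelled sex from a litter, so littermates are not independent samples of a treatment. Bulk tissue was used, and a difference in the methylation of a cell type cannot be told apart from a difference in the number of its cells.

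In mammals, DNAm is mostly the addition of a methyl group to cytosines that precede a guanine, and it is copied to both daughter strands when cells divide. It is dense in repeats, in the bodies of many genes and between genes, and sparse at the promoters of active genes. In methylated DNA immunoprecipitation sequencing (meDIP-seq), an antibody against 5-methylcytosine pulls down methylated fragments, so a peak marks a place where methylated fragments pile up, and its height depends on both methylation and the density of methylated cytosines. The absence of a called peak means that the pileup stayed under the caller's limit, not that the DNA was unmethylated.

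Libraries held 11548314 to 16555049 filtered fragments and 103898 to 208631 autosomal peaks. In 18 libraries the peaks on the sex chromosomes went against the labelled sex. Of the 30 libraries, 7 had 2.65% to 3.14% of their peaks on chromosome X and 4 to 11 peaks on chromosome Y, and 5 of these were labelled male. The other 23 had 0.774% to 1.15% on chromosome X and 38 to 87 peaks on chromosome Y, and 13 of them were labelled female. The groups were also unevenly placed on 5 sequencing chips. The ranges of the share of members called overlapped between libraries with and without this mismatch, with a mean of 25.9% in the 7 CON libraries with mismatched labels and 26.7% in the 3 others, 69.2% in 4 and 66.4% in 6 PAE libraries, and 68.3% in 7 and 67.6% in 3 PF libraries.

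Most members sat close to the limits of the rule. A CON call was present in 3 libraries at 894 members, in 2 libraries at 322, in 1 library at 74 and in none at 9. A PAE call was present in exactly 6 libraries at 658 members, and a PF call in exactly 6 at 631. In all, 210 members (16.2%) stood at all 3 limits. The most extreme members were few, with 7 called in all 10 PAE libraries and 9 in all 10 PF libraries. Just outside the rule, 1867 regions had 4 CON calls with at least 6 in both other groups, 973 had 5 PAE calls and 782 had 5 PF calls with the other limits met. The number of regions thus rose across the limit without a gap between members and the regions next to them.

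**Figure D1:**
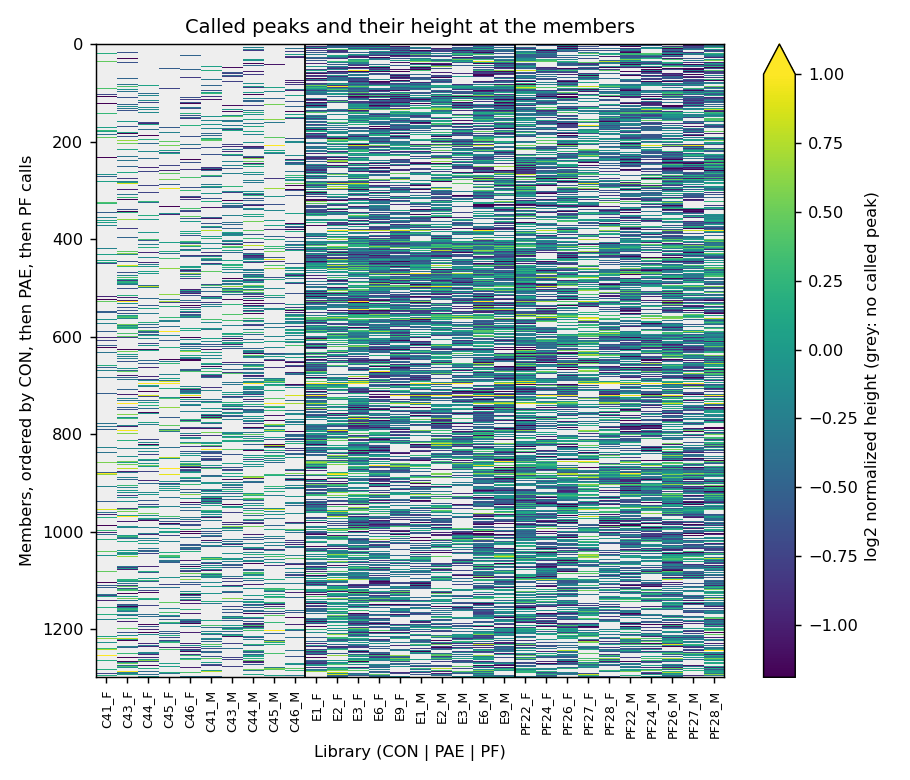
Each row is 1 of the 1299 members and each column 1 of the 30 libraries, grouped as CON, PAE and PF, with animal names below. Colour gives the log2 normalized height of a called peak, scaled to 1000000 filtered fragments, and grey marks no called peak. CON columns are mostly grey, as the rule requires, and no row is filled across all PAE and PF libraries.

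The share of members with a called peak was 15.8% in the lowest CON library, 27.6% at the median and 37.3% in the highest. In PAE libraries it was 56.4% at the lowest, 65.9% at the median and 77.1% at the highest. In PF libraries it was 57.0%, 69.3% and 78.6%. The groups do not overlap, which the rule fixed. Over all tested regions, by contrast, the ranges overlapped widely, at 30.3% to 52.0% in CON, 27.4% to 48.6% in PAE and 30.2% to 46.8% in PF libraries. The CON library with the highest share of tested regions, 52.0%, called 29.9% of members, and the CON library with the highest share of members, 37.3%, lay at 38.5% of tested regions. On each of the 5 chips the CON mean was the lowest, from 23.8% to 28.7% against 57.0% to 76.0%, which the choice of members favoured and from which nothing is read. UEX000295 held no PF library and UEX000298 no PAE library. UEX000296 and UEX000297 held 1 CON library each, and UEX000299 held 1 PF library.

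**Figure D2:**
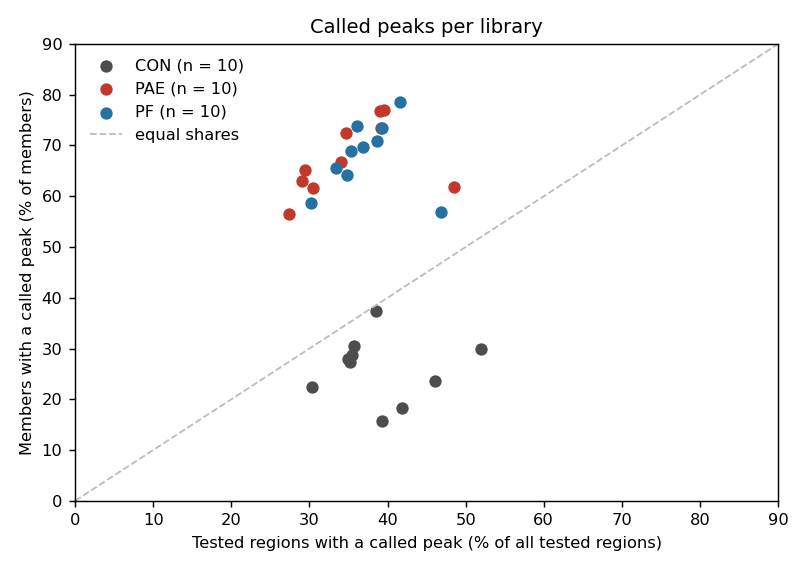
Each point is a library, with the share of all tested regions called on the horizontal axis and the share of members called on the vertical axis, both in percent. Of the 30 libraries, the PAE and PF ones lie above the dashed line of equal shares and the CON ones below it, which the choice of members favours.

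The number of members was compared with the number the same rule gives when litters carry other group labels. All 756756 ways to assign 15 litters to 3 groups of 5 were enumerated with littermates kept together. As many regions as observed, or more, met the rule in 488728 of them (64.6%), a one-sided exact permutation p of 0.646. The median over relabellings was 1448 regions, 1 in 20 gave fewer than 904 and 1 in 20 more than 2630, and the whole range was 538 to 3996. The 1299 members are thus fewer than the median relabelling gives. The relabellings did not keep the chips balanced between groups, so differences between chips can enter these counts. Exchanging the roles of the groups in the rule gave 2473 regions low in PAE and high in CON and PF, and 1310 low in PF and high in CON and PAE. The opposite pattern, at least 6 CON calls and at most 3 in each of PAE and PF, was met by 3670 regions. This pattern asks for fewer calls than the member rule, with a median of 11 libraries called against 16 at the members. Its number was not compared with relabelled litters, so 3670 and 1299 cannot be set against each other.

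**Figure D3:**
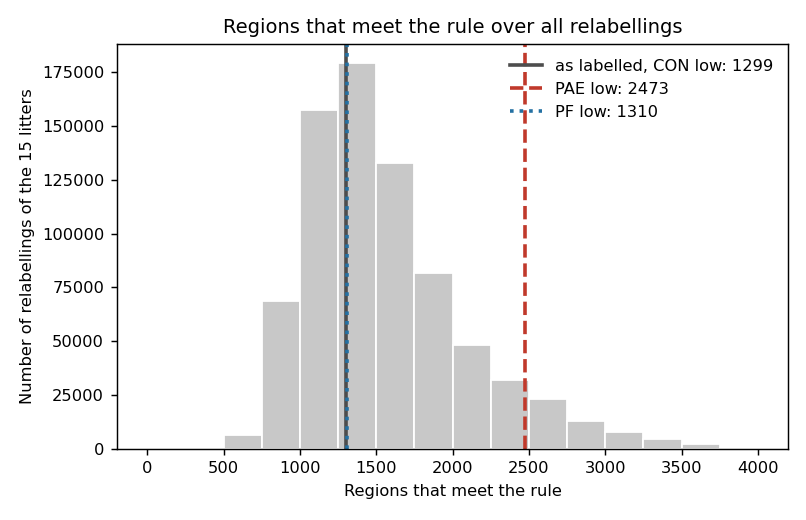
Bars count relabellings of the 15 litters (vertical axis) by the number of regions that met the rule (horizontal axis). The observed 1299 (solid line) and the 1310 with PF as the low group (dotted) lie just below the median of 1448, and the 2473 with PAE as the low group (dashed) lie in the upper tail but below the 2630 that 1 in 20 relabellings exceeded.

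Regions low in CON and regions low in PF were about equally many at 1 to 3 calls, and those low in PAE were more. PAE libraries also called the fewest of all tested regions, with a mean of 35.15% against 37.3% in PF and 38.95% in CON. The counts were not adjusted for this. Among 67891 regions called in at least 6 PAE and 6 PF libraries, 9 had no CON call, 74 had 1, 322 had 2 and 894 had 3. With PF counted in place of CON the numbers were 3, 79, 281 and 947. With PAE counted they were 15, 182, 623 and 1653.

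**Figure D4:**
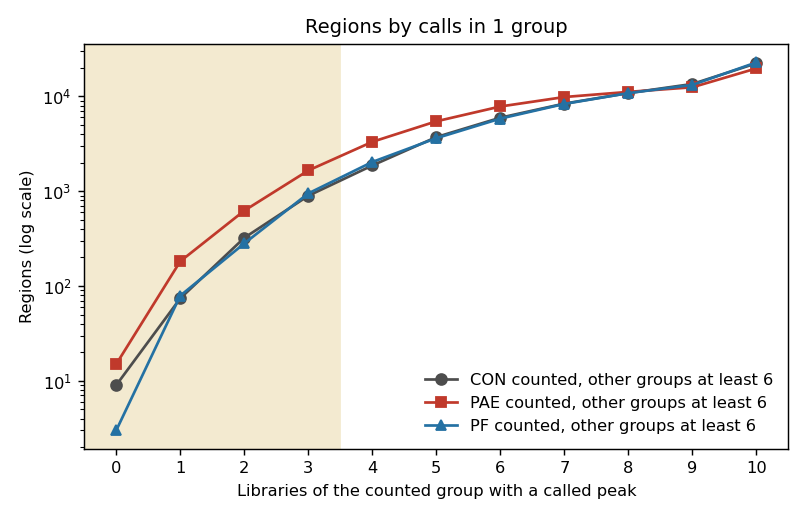
For each group in turn, the vertical axis (log scale) counts regions called in at least 6 libraries of both other groups, by the number of libraries of the counted group with a call (horizontal axis). The shaded part is the range the rule accepts as low. The CON line holds 9 to 894 regions there and runs beside the PF line, and the PAE line lies above both.

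Calls at the members were also counted by litter. Of the members, 420 had a call in at least 1 littermate of each of the 10 PAE and PF litters, 757 in each of the 5 PAE litters and 739 in each of the 5 PF litters. CON calls came from 3 CON litters at 568 members, from 2 at 612 and from 1 at 110. Littermates had the same state, called or not, at 52.3% of members in PAE, where other pairs of the group had 53.2%. In PF these values were 54.0% and 53.7%, and in CON 58.8% and 57.8%. Over all tested regions they were 67.2% and 68.0% in PAE, 67.5% and 67.4% in PF, and 66.3% and 65.6% in CON. Animals of a litter were therefore about as alike at the members as animals of different litters of the same group, given as a description over 5 littermate pairs and 40 other pairs a group.

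The rule treated PAE and PF alike and asked for at least 6 calls in each, which held their values at the members close together. Their difference is therefore described here without a test. Per litter, 67.5% ± 4.79 of members were called in PAE and 68.1% ± 4.46 in PF (SD, n = 5 litters each). PAE minus PF was -0.593 percentage points at the members and -2.15 points over all tested regions.

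The normalized height is the highest pileup of a library in a region per 1000000 filtered fragments. A library without a call was set to a floor of 0.438. Its own height is not known and can lie above or below that floor, so differences from uncalled libraries can be overstated or understated. In a limma fit over all 352026 tested regions with labelled sex and chip as covariates, 0 members passed a false discovery rate (FDR) of 0.05 between PAE and PF, as did 0% of tested regions. At an unadjusted p under 0.05 there were 24 members (1.85%), 10 higher in PAE and 14 higher in PF, against 4.46% of tested regions, shares that the choice of members limited and from which nothing is read. PAE minus PF had a median log2 value of -0.02 over the members and -0.02 over all tested regions, and over the members it turned to 0.02 under median ratio scaling. The smallest fitted p belonged to the region at chr2:30459993-30460678, chosen after its values were seen. It was called in 3 CON, 8 PAE and 6 PF libraries, and its height was 1.23 ± 0.516 in PAE and 0.662 ± 0.286 in PF (SD, n = 10 each), a log2 difference of 0.94 with a standard error of 0.31.

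Against CON, the members' heights were those of a set chosen for being higher. The members' median log2 difference from CON was 0.32 in PAE and 0.34 in PF animals, where all tested regions had -0.05 and -0.03. At an unadjusted p under 0.05, 263 members were higher in PAE (20.2%, background 1.34%) and 289 higher in PF (22.2%, background 2.06%), shares that the choice of members fixed in direction and from which nothing is read. The fitted difference was nonetheless below 0 at 36 members for PAE and at 41 for PF.

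Labelled sex played no part in the rule. The log2 difference of labelled females from labelled males had a median of -0.01 over the members and 0.02 over all tested regions. No member passed the FDR in limma (background 0%), and 67 members (5.16%) had an unadjusted p under 0.05, 34 higher in labelled females and 33 in labelled males, against 5.12% of tested regions. The member with the smallest p, chr15:58307385-58307840, was chosen after its values were seen: it was called in 13 of 15 libraries labelled female and in 5 of 15 labelled male, a log2 difference of 0.99 with a standard error of 0.25 and an adjusted p of 0.854 in limma. In the 12 libraries whose sex chromosome peaks were as labelled, 2 female and 10 male, 5 members passed the FDR in limma (background 2.23%), and none did (background 0.000509%) once regions had to exceed the floor in at least 3 of these libraries, which kept 1296 members and 196382 regions. That fit had 4 residual degrees of freedom. By label, CON females called 23.4% ± 6.68 of the members and CON males 29.0% ± 5.08, PAE females 68.7% ± 6.08 and males 66.3% ± 8.55, and PF females 64.9% ± 7.17 and males 71.2% ± 5.30 (SD, n = 5 each), which was not tested.

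The members were low peaks, and so were the tested regions as a whole. Where called, they had a median height of 0.857 in CON libraries, 0.788 in PAE libraries and 0.804 in PF libraries, against 0.883, 0.825 and 0.846 over all tested regions. This corresponds to a median of 11 fragments at the summit, where the lowest called autosomal peak had 5, and to a fold enrichment over the local background of 4.36, 4.27 and 4.27. Over all tested regions the median was 12 fragments and the fold enrichment 4.53, 4.42 and 4.42. At 1252 of 1299 members the tallest peak of any library stayed under a height of 2, and at 5 it reached 3. The tallest peak had a median height of 1.207 at the members and 1.1 over all tested regions. It was 1.295 at regions low in PAE and 1.316 at regions low in PF by the same rule. The length of members ranged between 294 and 2091 bp (median 604 bp), against 544 bp for all tested regions, and regions low in PAE or low in PF by the same rule were longer, with medians of 678 and 632 bp. The rule required at least 12 calls a member, and the median was 16 libraries in all 3 sets. Where both groups were called, the median summit of PAE libraries and that of PF libraries lay a median of 21.5 bp apart, and the summits of CON calls lay a median of 35.5 bp from those of PAE and PF libraries.

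Members were scattered over the autosomes. Their share of tested regions was lowest on chromosome 16, with 37 members among 12320 tested regions, and highest on chromosome 19, at 0.455%. No 2 members lay within 1000 bp of each other, 7 neighbouring pairs lay within 10000 bp and 94 within 100000 bp, and the median gap was 1.27 Mb. The longest chains within 100000 bp held 3 members, at chr1:141305247-141445453, chr3:82467729-82632602 and chr5:155514464-155646711. The nearest tested regions within 5000 bp did not share the members' difference from CON. These 1044 neighbours had a median log2 difference of -0.09 for PAE and -0.06 for PF, and 31.8% and 35.9% of them lay above CON, against 36.8% and 42.4% of all tested regions.

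The study lists 1462 differentially methylated regions (DMRs) found on these same animals from read counts, and all of them equal a merged region in position. Of the members, 14 (1.08%) are among them, 13 listed as shared by PAE and PF and 1 as PAE-specific, where 0.402% of all tested regions are listed. Since both selections used the same animals, this overlap is a description. Of 915 tested shared DMRs, 321 had higher heights in both PAE and PF than in CON and 538 had lower heights in both. Of those 321, 290 had at most 3 CON calls but fewer than 6 calls in PAE or PF, and 18 had more than 3 CON calls. In the gene groups drawn from the study's named genes, the group of synapse, adhesion and neuronal growth held 1 member (Nrg2) among 29 listed regions and the group of transcription and Wnt or Hippo signalling held 1 (Per3) among 18. The second messenger and kinase group (10 listed regions), the transporter and metabolism group (16) and the immune and vascular group (9) held 0. Members made up 0.369% of all tested regions, so with 9 to 29 listed regions a group these counts cannot tell the groups apart. No region of these groups passed the FDR between PAE and PF or between the labelled sexes in limma (background 0% for both). These lists were chosen on the same animals and are not independent evidence of a direction.

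Of the 14 listed members, 6 carried a gene in the study's rn6 annotation, and the members outside the listing were not annotated here.

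Per3 encodes a period protein of the circadian clock, and its member lies in an intron at chr5:168102042-168102670. Heights in CON ran from the floor of 0.438 to 1.15 with the median at the floor, and 2 libraries were called. Heights ran from the floor to 1.36 in PAE (median 1.10, 7 called) and to 1.38 in PF (median 1.11, 8 called). The groups overlap, and 7 PAE and PF libraries exceeded the highest CON library. PAE and PF differed by a log2 value of 0.14 with a standard error of 0.27.

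Med12l encodes a paralogue of a Mediator kinase module subunit, and Mediator links transcription factors to RNA polymerase II. The intronic member at chr2:149256492-149257148 was called in no CON library, so all CON libraries were set to the floor. It was called in 7 PAE libraries (highest 1.16, median 0.719) and in 7 PF libraries (highest 1.04, median 0.696). The 14 called libraries all lay above that floor, and the remaining 6 PAE and PF libraries were set to it as well. PAE differed from PF by a log2 value of -0.11 with a standard error of 0.21.

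St5, which encodes a protein with a DENN domain, a fold of exchange factors for Rab GTPases, held an intronic member at chr1:174146114-174147329. It was called in 2 CON libraries (highest 0.717), 9 PAE libraries (median 0.728, highest 0.965) and 8 PF libraries (median 0.686, highest 1.04). The Arhgap8 member at chr7:125796169-125796838, within 1500 bases upstream of the start site by the study's annotation, was the only one of the 6 near a promoter. It was called in all 10 PAE libraries but in 6 PF libraries, with medians of 0.642 and 0.461, and in 2 CON libraries. Mean heights without adjustment were 0.657 in PAE and 0.580 in PF. In the fit with labelled sex and chip as covariates, PAE and PF differed by a log2 value of 0.00 with a standard error of 0.19. Several called PAE peaks were close to the floor.

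Pdzk1ip1 encodes a small membrane protein that binds PDZ domains, and its intronic member at chr5:133898854-133899453 was near the limits of the rule. It was called in 3 CON (highest 1.08), 6 PAE (median 0.680, highest 1.29) and 7 PF libraries (median 0.723, highest 1.03). Only 1 PAE or PF library exceeded the highest CON library. Nrg2 encodes a neuregulin, a ligand of ErbB receptors with roles at synapses. Its intronic member at chr18:28855652-28856037, listed by the study for females, was called in 2 CON (highest 0.884), 6 PAE (median 0.575, highest 1.03) and 6 PF libraries (median 0.649, highest 1.45). In libraries labelled female it was called in 0 of 5 CON, 4 of 5 PAE and 4 of 5 PF libraries. In those labelled male it was called in 2 of 5 of each group, and these counts were not tested. The study's listing used the same animals and labels, so the counts are not independent of it. Sex chromosome peaks went against the label in 13 of the libraries labelled female.

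Another 5 members lay between listed positions of 1 gene and were placed inside it. Together the 31 genes with such spans held 840 tested regions, so members made up 0.595% of them against 0.369% of all tested regions, which was not tested. Trpm3 encodes a cation channel of sensory neurons and brain, and its member at chr1:240009940-240010409 was called in 3 CON, 9 PAE and 9 PF libraries, with heights up to 1.12, 1.10 and 1.35, so that 1 PAE or PF library exceeded the highest CON library. Ephb1 encodes a receptor tyrosine kinase for ephrin-B ligands in axon guidance. Its member at chr8:110569091-110569675 was called in 3 CON (highest 0.988), 8 PAE (median 0.602) and 8 PF libraries (median 0.815). Cdh13 encodes T-cadherin, an adhesion protein held by a lipid anchor. Its member at chr19:51705530-51706188 was called in 3 CON, 6 PAE and 8 PF libraries, with medians of 0.700 in PAE and 1.11 in PF, a log2 difference of PAE from PF of -0.66 with a standard error of 0.28. Pcdh9, a protocadherin gene (chr15:77523153-77523749), and Camta1, which encodes a calmodulin-binding transcription activator (chr5:168374636-168375265), both stood at all 3 limits, with 3 CON, 6 PAE and 6 PF calls. Camta1 reached 1.01 in CON, 1.22 in PAE and 0.918 in PF.

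**Figure D5:**
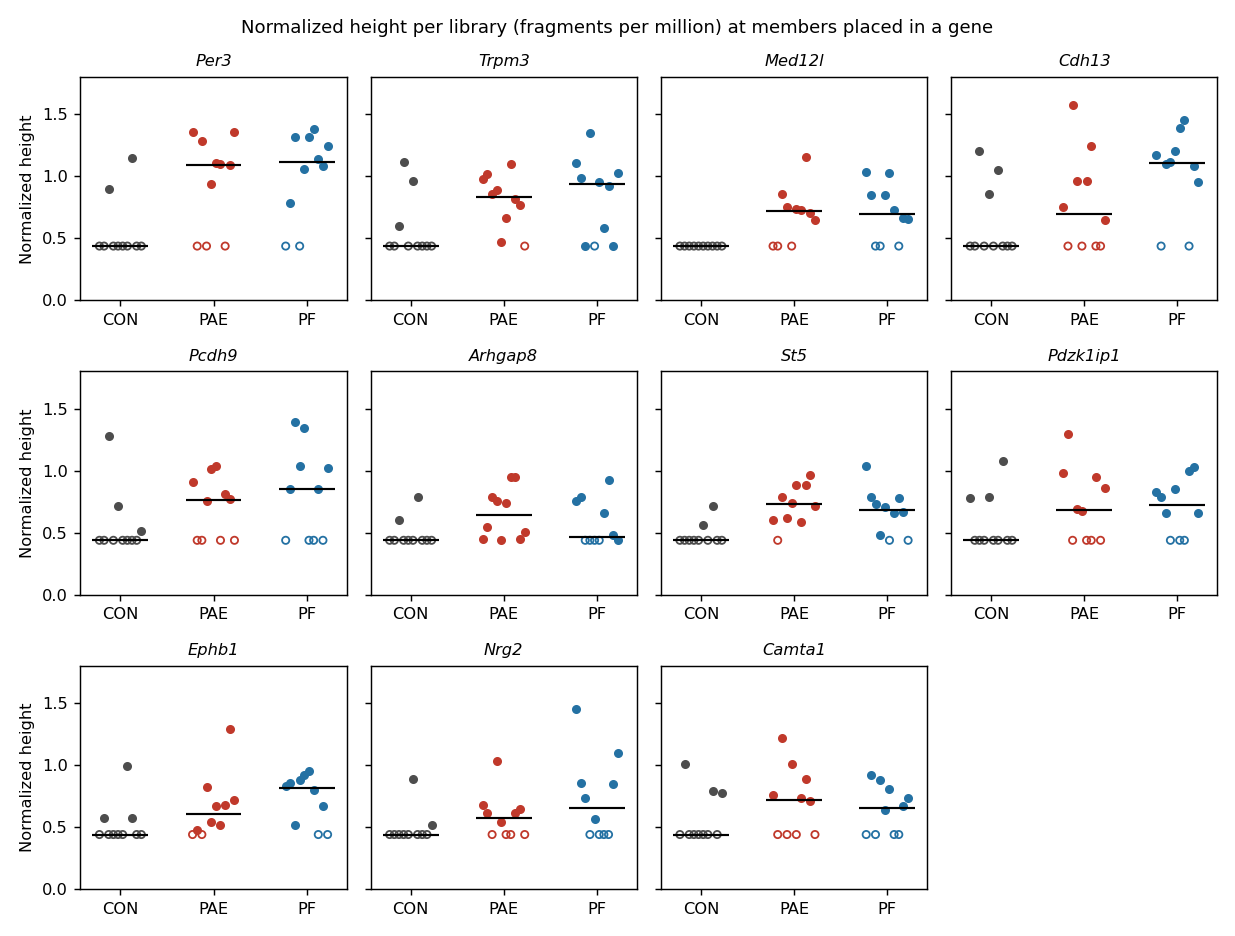
Normalized height in fragments per 1000000 (vertical axis) of each library, by group, at the 11 members placed in a gene. Filled points are called peaks, open points are libraries without a call, set to the floor of 0.438, and lines are group medians. CON medians are at the floor in all 11 panels, and single CON libraries reach the PAE and PF heights in most, as at Trpm3 with 1.12.

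Most of the members with the highest score carried no gene by this listing, and gene bounds were not used here. The 3 with the highest score (PAE plus PF minus CON calls, 16) were chr12:35459536-35460579, chr18:77262378-77263387 and chr14:5132177-5133132. The first was called in 3 CON, 9 PAE and 10 PF libraries with medians at the floor, 1.07 and 1.01, yet a CON library had the highest value of all, 2.08. The second was called in 3, 9 and 10 libraries with medians at the floor, 0.661 and 0.769, and 6 PAE and PF libraries exceeded the highest CON library, 0.827. The third was called in 3, 10 and 9 libraries with medians at the floor, 0.786 and 0.794, and its highest value, 2.06, was again that of a CON library.

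A score of 15 was reached by 20 members. The 6 given here by position, in addition to Trpm3, were led by chr13:5540171-5540796, called in 3 CON, 9 PAE and 9 PF libraries with medians at the floor, 1.12 and 1.19. At chr8:51555047-51556083, called in 1, 7 and 9 libraries, the median height was 1.08 in PF and 0.739 in PAE. Its fitted PAE minus PF log2 value was -0.55 with a standard error of 0.23 and an adjusted p of 0.988 in limma. The region at chr4:7794933-7795724, called in 1, 8 and 8 libraries, is also a listed shared DMR, and 8 PAE and PF libraries exceeded the highest CON library. At chr7:129567340-129567768 the calls were 3, 10 and 8, at chr1:129122771-129123272 they were 2, 8 and 9, and at chr6:50335014-50335653 they were 2, 8 and 9.

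The other 8 listed members had no gene in the study's annotation. The 1 listed as PAE-specific, chr12:116758-117382, had the tallest peaks among the members named here. It was called in 3 CON, 9 PAE and 7 PF libraries, with heights up to 3.38, 3.23 and 2.11 and medians at the floor, 2.45 and 1.73. A CON library thus had its tallest peak, and PAE exceeded PF by a log2 value of 0.53 with a standard error of 0.35. At chr9:11960706-11961229 the 1 called CON library was itself at the floor, and 14 of the 20 PAE and PF libraries lay above CON, with medians of 0.582 and 0.617. At chr5:73877435-73877980, called in 3 CON, 7 PAE and 9 PF libraries, 13 lay above the highest CON library, 0.576. At the remaining 4 the highest CON values were 0.582 to 1.03, and 6 to 11 PAE and PF libraries exceeded them.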

How the data were processed

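Each of 30 rats gave 1 meDIP-seq library of PFC tissue. Per the labels, the file headers and the study's methods, the authors used BWA and the rn6 genome for alignment, and samtools for filtering to paired, non-duplicate fragments at a mapping score of at least 10. The authors called peaks per library with MACS2 (2.1.4 in the file headers), with no input control and a q-value threshold of 0.05. Pileup, the deposited signal, is the fragment coverage at a peak's summit. The deposited fold enrichment is the ratio of that pileup to the local background, and the deposited −log10 q-value set the stricter threshold. The authors' later steps on read counts were not used here.

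Peaks were merged over all libraries with an overlap of at least 1 bp. The normalized height was the highest pileup per 1000000 filtered fragments, with a common floor of 0.438. Heights on the log2 scale entered limma 3.58.1 under R 4.3.3 (trended prior, group, labelled sex and chip, Benjamini-Hochberg adjustment over 352026 regions, FDR 0.05). Litters were relabelled exhaustively, with Python 3.11.15, numpy 2.4.6, pandas 2.3.3, scipy 1.17.1 and matplotlib 3.10.9. Both steps were tested on simulated data. The pups of a litter are separate animals but share a dam, and p-values over animals measure the spread between animals.

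The members, gene groups and tests were chosen with earlier results of these data known. Members whose position equals a DMR listed by the study with a gene were named, as were those between listed positions of 1 gene with no other gene listed between, and the 10 highest by PAE plus PF minus CON calls, with ties broken by the higher mean log2 difference from CON. Genes and features are those of the study's annotation. Alternatives were another peak threshold, an equal height limit, 50% coverage, stricter and looser limits, no chip term, a pseudocount of 0.1, median ratio scaling, a random effect of litter, and each animal, litter or chip left out. After the data were seen, fits without a labelled sex term and with only the libraries whose sex chromosome peaks were as labelled, and with litter as a block for labelled sex, were added. Region sequences were not used here. Fragment totals of 11548314 to 16555049 limit what a peak of few fragments can show.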

Additional observations from a re-analysis of the deposited data

Results flagged for a closer look

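Among 82 groups of 10 libraries examined at the members named in the report and for the share of members called, 17 held 1 library far from the others, with a gap to its nearest neighbour above Dixon's critical share of the group's range. Chance flags about 1 in 20 groups of continuous values, a rate that does not apply to groups with many libraries tied at the floor. Of the 17, 13 were CON groups, which the rule holds to at most 3 calls, and 4 had a single called library.

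In CON the normalized height was 2.08 in C41_F at chr12:35459536, 2.06 in C45_F at chr14:5132177, 1.28 in C44_F at Pcdh9 and 1.22 in C46_F at chr7:129567340. It was 1.13 in C41_F at chr8:51555047, 1.03 in C46_M at chr2:31941840, 1.00 in C44_M at chr4:7794933 and 1.00 in C46_F at chr6:50335014. It was 0.988 in C43_M at Ephb1, 0.884 in C41_M at Nrg2, 0.791 in C43_M at Arhgap8, 0.717 in C44_M at St5 and 0.582 in C46_M at chr5:73433834. In PAE it was 1.29 in E6_M at Ephb1, 1.16 in E3_M at chr9:11960706 and 1.03 in E6_F at Nrg2. In PF it was 1.83 in PF27_F at chr1:129122771.

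Peaks on the sex chromosomes were used only to sort libraries by their match with the labelled sex. Of the 23 libraries low in chromosome X peaks, 13 were labelled female. These 23 libraries had 38 to 87 peaks on chromosome Y, and the other 7 had 4 to 11.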

How the results depend on the processing

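The number of members followed the limits of the rule, at 87 with all limits 1 library stricter and 8376 with all limits 1 library looser. With q below 0.01, the equal height limit and 50% coverage it was 1093, 1245 and 965, within 1.5 times the main count, and in each of these 5 settings fewer regions were low in CON than in PAE (low in PAE 197, 13896, 2338, 2357 and 1714 in the order given). The relabelling p ranged from 0.535 to 0.798 over the 5 settings.

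With the limits kept as shares of a group, leaving out 1 animal gave 570 to 782 members for CON animals, 829 to 1003 for PAE animals and 863 to 983 for PF animals. By construction, 9 CON libraries allow at most 2 calls and 9 PAE or PF libraries still require 6. Each of the 10 CON animals moved the count by over 1.5 times, as did E3_F (829), E6_M (839), E9_M (854) and PF26_M (863). Leaving out a litter gave 989 to 1386. Leaving out a chip gave 251 to 2028, with 2028 without UEX000295, 665 without UEX000296, 251 without UEX000297 and 513 without UEX000299, where the rounding of the shares also differs.

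No member passed the FDR between PAE and PF in limma in any of the alternative fits, and 19 to 32 members had an unadjusted p under 0.05 when each animal was left out. The rule held PAE and PF close together at the members, so nothing is read from these counts. Of all tested regions, 0 passed in these fits, except for 147 of 352026 in the 12 libraries whose sex chromosome peaks were as labelled. With the filter on regions that number was 0. For labelled sex, 0 members passed and 50 to 72 had an unadjusted p under 0.05 when each animal was left out. In the 12 libraries whose sex chromosome peaks were as labelled, 5 members passed the FDR for labelled sex. None of them did with the filter on regions, and the cause was not tested. The litter difference of PAE from PF in the share of members called ran from -2.66 to 1.47 percentage points when each animal was left out, and was above 0 in 5 of 20 fits. No paired analysis was possible between the prenatal groups because the labels give them no shared replicate numbers. With litter as a replicate block, which pairs the labelled sexes, 0 members passed the FDR for labelled sex, 53 had an unadjusted p under 0.05, and the median log2 difference was -0.02. With a median of 11 fragments at a called summit, a difference between a low peak and no peak rests on few fragments.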
